A study of Mus musculus with 12 samples.

Results

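The late-numbered microRNAs (miRNAs) of the mouse are those whose registry number is 3000 or higher, and their expression was examined in skeletal muscle with and without cofilin-2, a muscle protein that severs and depolymerizes actin filaments. Every array name of the form miR-N with N of at least 3000 was taken, whatever its ending. Left out were miR-3070, miR-3071 and miR-3072, which belong to the imprinted Dlk1-Dio3 cluster, and miR-3960. This gave 174 of the 1096 miRNA names on the array, from 112 registry numbers, by a rule on the name. The samples were quadriceps muscles taken at postnatal day 7 from C57Bl/6 mice, 6 of them wildtype (WT1 to WT6) and 6 cofilin-2 null (KO1 to KO6). The null mice lack the gene in every tissue, and a sample is a piece of whole muscle with its vessels and blood. The methods describe each sample as separate tissue from one mouse of a littermate pair, but the numbers in the labels are not said to mark the pairs. All WT samples were labelled with the dye Cy5 and all KO samples with Cy3, so an effect of the dye and an effect of the genotype cannot be told apart, here or in any result below.

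A miRNA is cut from a hairpin in a longer transcript, and one of the arms of the hairpin is loaded into an Argonaute protein, where bases 2 to 8 (the seed) pair with target mRNAs. Registry numbers follow the order of discovery. The classic muscle miRNAs have low numbers, whereas the high numbers come largely from deep sequencing of small RNAs. Many of these later miRNAs are scarce and have no assigned function, and some entries were later withdrawn or reclassified as fragments of other RNAs. A trailing asterisk marks the arm of a hairpin that was thought to be the minor one, and the endings 5p and 3p name the arms by their position.

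The sequences below are shown because the results turn on these miRNAs, or because both arms of a hairpin, or a look-alike, were measured. They are mature sequences from RefSeq on GRCm38.p6, written 5′ to 3′, with the seed in capitals. For miR-3077 and miR-3102 both arms are printed because the sources used here do not settle which arm bears the asterisk, and for miR-3075 RefSeq held the 3p arm, which may or may not be the arm on the array. They were, in order, at chr1:84695890-84695911 (plus strand), chr14:102982608-102982631 (minus), chr14:57798424-57798448 and chr14:57798466-57798487 (plus), chr7:100882367-100882387, chr7:100882330-100882350, chr7:100882388-100882409 and chr7:100882307-100882329 (all minus), chr14:25534491-25534511 (plus), chr5:35021050-35021072 (plus), chr17:25831406-25831427 (minus), chr1:194822035-194822054 (plus) and chr9:106178846-106178867 (plus).
miR-5126: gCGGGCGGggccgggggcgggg
miR-5130: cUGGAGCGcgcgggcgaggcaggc
miR-3077-5p: cUGCGGACgggugggcgggcaggcc
miR-3077-3p: cUGACUCCcugcuucuccgcag
miR-3102-5p.2: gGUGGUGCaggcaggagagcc
miR-3102-3p.2: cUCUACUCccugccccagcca
miR-3102-5p: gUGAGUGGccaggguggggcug
miR-3102-3p: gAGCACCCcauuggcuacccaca
miR-3075-3p: aUCCUUGGccuuccuaggugu
miR-3097-5p: cACAGGUGggaagugugugucca
miR-3082-5p: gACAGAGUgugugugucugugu
miR-3962: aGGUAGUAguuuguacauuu
let-7g-5p: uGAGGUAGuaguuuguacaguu

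Of the 174 late-numbered miRNAs, 81 matched a RefSeq mature sequence by name and 2 through a gene synonym with the arm given. A further 63 matched a hairpin whose arm was not settled, and 28 had no entry. Among the miRNAs bright enough to test, those named without a sequence are miR-3107, miR-3107*, miR-3970, miR-5099, miR-5105, miR-5107, miR-5109, miR-5112, miR-5115 and miR-5117. The remaining tested miRNAs had 34 candidate mature sequences, with 34 distinct seeds, so none of them shared a seed with another. For 5 of the 34, the seed was also that of a miRNA from another gene. The longest run of bases shared with a miRNA of another gene was 10 bases in the median sequence and ran from 8 to 18. The share of G and C was 61.9% in the median sequence and ran from 30% in miR-3962 to 100% in miR-5126, which holds 17 G in 22 bases. miR-3962 holds the run AGGUAGUAGUUUGUACA of 17 bases, which begins at its base 1 and at base 3 of let-7g-5p, a member of the let-7 family, so the seeds of this pair differ although most of their letters are shared.

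In the RefSeq annotation, 31 of the 35 hairpins behind the tested miRNAs had a gene record, and 26 of these lay within the span of a protein-coding gene, strand not considered. Those without a record were miR-5105, miR-5109, miR-5115 and miR-5117, which also had no sequence. Of these, miR-5105, miR-5109 and miR-5115 are among the miRNAs with an unadjusted limma p under 0.05 below. Mir5126 lies within Dner, which encodes a transmembrane ligand of Notch receptors. Mir5130 lies within Kctd12, an auxiliary subunit of GABA-B receptors, Mir3077 within Sap18, a component of the Sin3 histone deacetylase complex, and Mir3102 within Arhgef17. Mir3075 lies within Zmiz1, a transcriptional coregulator, and Mir3097 within Rgs12, a regulator of G-protein signalling. Mir3100 lies within Dmpk, the myotonic dystrophy protein kinase. Mir3107 lies within Ank1, the gene of an ankyrin, and its record overlaps Mir486, the gene of a miRNA abundant in muscle and red blood cells. Only 2 of these hairpins had another miRNA gene within 10 kb, so the late-numbered miRNAs tested were mostly separate loci.

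The authors deposited normalized intensities, which measure the brightness of each miRNA's probes on a linear scale. The summed intensity was 594311 to 626783 in the WT samples and 610239 to 636136 in the KO samples, which puts the totals of the 12 samples close together. The muscle miRNAs miR-1a, miR-133a, miR-133b and miR-206 summed to 81000 to 93229 in WT and to 78874 to 105680 in KO, and the defining miRNAs of liver (miR-122, at most 16) and brain (miR-124, at most 35, and miR-9, at most 5) were near 0. The 6 blood cell miRNAs summed to 102 to 475 in WT and to 51 to 372 in KO, with miR-144 and miR-142-3p at most 7. The endothelial pair, nearly all of it miR-126-3p, summed to 2233 to 4745 in WT and to 765 to 2709 in KO, and its part in the results below was not tested. In whole muscle, fewer cells of a type and less RNA per cell cannot be told apart. Over the tested miRNAs, KO1 correlated with the rest of the KO samples at a mean Pearson r of 0.848, and the same value was between 0.907 and 0.970 for every other sample and its own genotype.

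Most late-numbered miRNAs were dim, and since brightness depends on the probe as well as on the miRNA, it is not read as abundance here. All 12 samples were below an intensity of 32 for 110 of the 174, and 24 reached 32 in every sample. Of the 174, 39 had a mean intensity of at least 32 over the 12 samples and were tested, and 135 were not. The 135 had a median mean intensity of 9.25, and their highest single value was 75, although 25 of them reached 32 in at least 1 sample. Of all 2088 values of the late-numbered miRNAs, 15 were 0. Just inside the limit was miR-5122, at 19 to 42 in WT and 20 to 46 in KO, and just outside were miR-3059*, with a mean intensity of 31.9, and miR-3064-3p, with 31.5. For 4 of the 39 the mean of the WT samples alone was under 32, so they passed through the KO samples: miR-3077, miR-3075, miR-3102-3p.2 and miR-5119. No miRNA passed through the WT samples alone.

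The numbers fall into blocks, and the bright miRNAs came mainly from 2 of them. The block from miR-3057 to miR-3113 held 111 of the names and 16 of those tested, and the block from miR-5097 to miR-5136 held 40 and also 16. The 11 names from miR-3961 to miR-3971 gave 4 tested miRNAs, the 10 names from miR-3470 to miR-3475 gave 2, and miR-5046 was tested alone. The late-numbered miRNAs together held 3.93% to 8.85% of a WT sample's summed intensity, with a median of 6.33%, and 6.71% to 11.3% of a KO sample's, with a median of 8.87%. Without miR-5126, the miRNA with the highest mean intensity among them, these shares were 2.15% to 6.56% and 4.42% to 7.22%. The groups overlapped both with and without miR-5126.

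Genotypes were compared with limma on log2 intensities over the 370 miRNAs of the array whose mean intensity reached 32, and a log2 change is KO minus WT. Of the 39 late-numbered miRNAs tested, 9 were higher in KO with a limma p under 0.05 before adjustment, the limit given in the methods, where the background over all 370 miRNAs was 9.73% in that direction. None was lower in KO with such a p, where the background was also 9.73%. The 9 were miR-5126, miR-5130, miR-3077*, miR-3077, miR-5105, miR-5109, miR-5115, miR-3075 and miR-3102-5p.2. Of the 9, miR-3077 and miR-3075 entered the test only through their KO samples, the group in which they were higher, so their p-values are given as a description. Among the 35 late-numbered miRNAs whose mean reached 32 in both genotypes, a restriction chosen after the values were seen, 7 were higher in KO at the same threshold, where the background over the 347 such miRNAs was 8.65%. After Benjamini-Hochberg adjustment over all 370 miRNAs, limma called none of the 39, with 9 at an unadjusted p under 0.05 and a smallest adjusted p of 0.0586, and the background was 1.35%. In none of the 39 did every KO sample lie above every WT sample, where the background was 1.62%.

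The median log2 change of the 39 was 0.41, with a range of -0.70 to 1.66, and 26 were higher and 13 lower in KO. Of the 26, 4 had entered the test only through their KO samples. All 4 lay above this median, so the filter tilts the median and the split upward. Over all 370 miRNAs the median was -0.08, and over the 285 numbered below miR-1000 it was -0.11. The 32 tested miRNAs numbered from miR-1000 to miR-2999 had a median of 0.23, with 9 higher and 2 lower at an unadjusted limma p under 0.05. For those numbered below miR-1000 these counts were 17 and 30. The medians of the blocks were 0.07 for miR-3057 to miR-3113, 0.58 for miR-3470 to miR-3475, 0.32 for miR-3961 to miR-3971 and 0.49 for miR-5097 to miR-5136. Of the 9 miRNAs with a p under 0.05, 4 came from the first of these blocks and 5 from the last. Among the 4 from the first block, miR-3077 and miR-3075 had entered the test only through their KO samples. Also entering that way were miR-3102-3p.2 in the first block and miR-5119 in the last, which enter the block medians. The median of the 39 stayed above 0 under every alternative tried but fell to 0.016 when all 174 late-numbered miRNAs were kept.

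**Figure D1:**
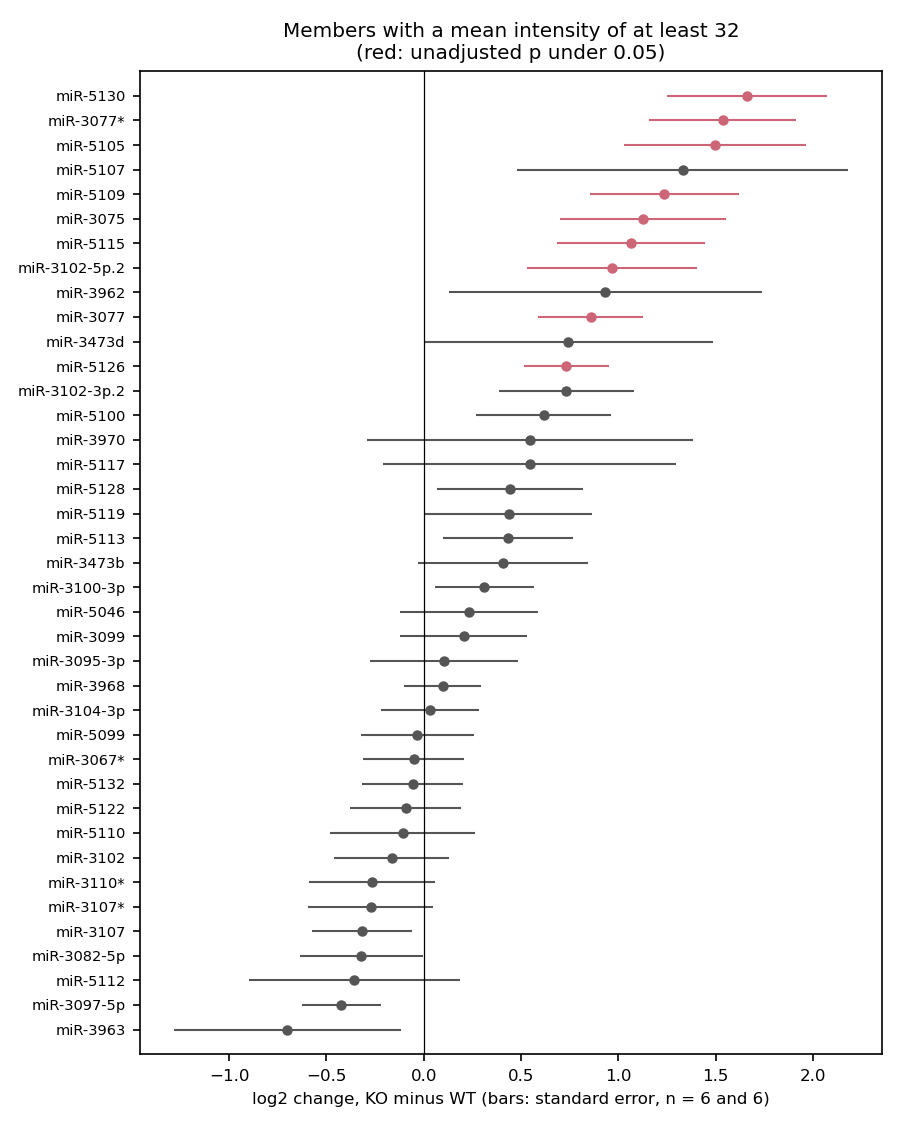
Log2 change (KO minus WT, horizontal axis) of the 39 late-numbered miRNAs whose mean intensity reached 32, as points with bars of 1 standard error (6 WT and 6 KO samples), with an unadjusted limma p under 0.05 in red. The changes run from -0.70 for miR-3963 to 1.66 for miR-5130, and the 9 red points are all above 0.

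**Figure D2:**
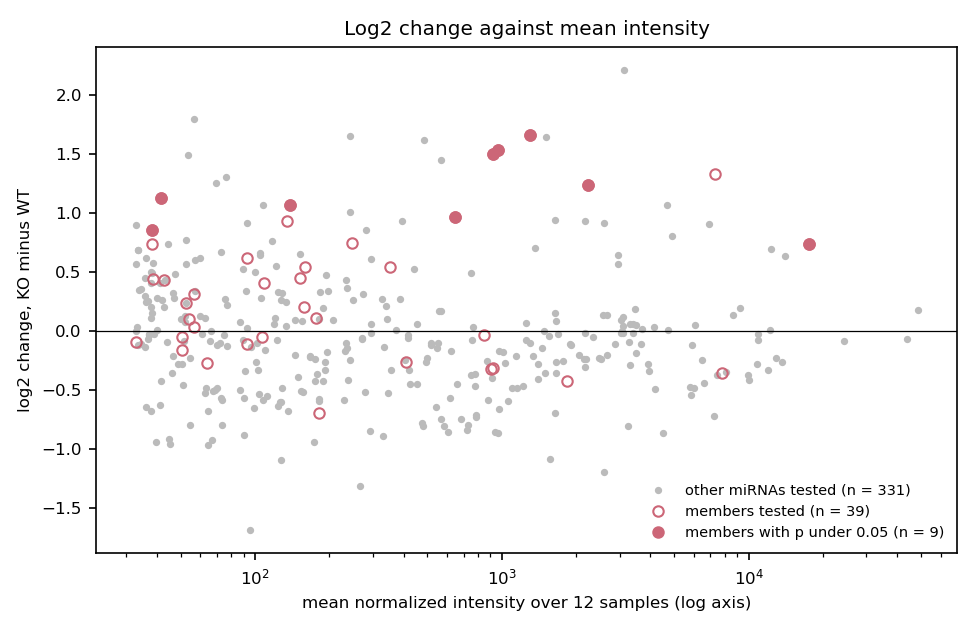
Log2 change (KO minus WT, vertical axis) against the mean normalized intensity over 12 samples (horizontal log axis), for the 39 late-numbered miRNAs tested (circles, filled where the unadjusted limma p was under 0.05) and the other miRNAs tested (grey points). Of the 9 filled circles, 6 lie at a mean intensity of at least 500, where 12 of the late-numbered miRNAs lie. Calls were not particular to the late-numbered miRNAs there. A limma refit with the filter at 500 gave 45 miRNAs over the whole array with an unadjusted p under 0.05. Of these, 7 were late-numbered (6 higher, 1 lower).

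miR-5130, the G-rich sequence from within Kctd12, had the largest log2 change of the 39. Its intensity in WT was lowest at 416, had a median of 483.5 and was highest at 864, and in KO it was lowest at 610, had a median of 1908 and was highest at 4802. KO1 was the highest sample, KO4 the lowest of the KO samples, and 5 of the 6 KO samples lay above every WT sample. The log2 change was 1.66 ± 0.410 (SE, limma unadjusted p = 0.00127, adjusted p = 0.0586). A two-sided exact permutation test over all assignments of the samples to 2 groups of 6 gave p = 0.00649. The unadjusted p stayed under 0.05 in all 24 alternatives, and without KO1 the log2 change was 1.36.

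The asterisked arm of the miR-3077 hairpin lay between 269 and 730 in WT, with a median of 489, and between 603 and 2926 in KO, with a median of 1308.5. KO1 was again the highest sample, and KO5 lay within the WT range. KO minus WT, the log2 change was 1.54 ± 0.378 (SE, limma unadjusted p = 0.00124, adjusted p = 0.0586, exact permutation p = 0.00866). The other arm, named miR-3077, was dim, with 19 to 36 in WT (median 25.5) and 31 to 77 in KO (median 45.5). Here KO2 was the highest sample and KO1 the lowest of the KO samples, and 4 of the 6 KO samples lay above every WT sample. Its log2 change was 0.86 ± 0.270 (SE, limma unadjusted p = 0.00691, adjusted p = 0.0955, exact permutation p = 0.0130). This arm passed the filter only through the KO samples, and its log2 change was 0.53 with values under 32 raised to 32 and 0.37 with a pseudocount of 50. The KO sample that was highest for the asterisked arm was lowest for the other.

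miR-5105 was measured at 260 to 545 in WT, with a median of 365, and at 404 to 4475 in KO, with a median of 973. KO1 stood above the next KO sample, which was at 1297, and KO5 lay within the WT range. Its log2 change came to 1.496 ± 0.468 (SE, limma unadjusted p = 0.00672, adjusted p = 0.0955, exact permutation p = 0.00649), and it was 1.08 without KO1.

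miR-5109 ran from 912 to 2017 in WT, with a median of 1071, and from 967 to 6718 in KO, with a median of 2915. KO1 was the highest, WT6 was the highest of the WT samples, and KO4 lay within the WT range while the other KO samples lay above it. This gave a log2 change of 1.24 ± 0.385 (SE, limma unadjusted p = 0.00646, adjusted p = 0.0955, exact permutation p = 0.0152). Without KO4 it was 1.54, with an adjusted limma p of 0.0177.

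miR-5126, composed only of G and C and with the highest mean intensity of the late-numbered miRNAs, had 10568 to 15863 in WT, with a median of 13300.5. In KO it had 13044 to 27786, with a median of 22997.5. KO4, at 13044, was the only KO sample within the WT range, and the other KO samples were at 19718 or higher. The difference on the log2 scale was 0.73 ± 0.219 (SE, limma unadjusted p = 0.00491, adjusted p = 0.0908, exact permutation p = 0.00866). Among the 9 miRNAs this was the smallest log2 change, with a narrow spread: the highest WT sample was 1.501 times the lowest, and the highest KO sample 2.13 times. Quantile normalization lowered the change to 0.48 and took the unadjusted p past 0.05, whereas the fit without KO4 gave 0.88 with an adjusted limma p of 0.0331.

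miR-5115 had 58 to 146 in WT (median 74) and 63 to 402 in KO (median 178). KO6 was the highest sample, and KO2 and KO5 lay within the WT range. On the log2 scale, the change was 1.07 ± 0.380 (SE, limma unadjusted p = 0.0144, adjusted p = 0.127, exact permutation p = 0.0325). miR-3075, from within Zmiz1, had 14 to 35 in WT (median 23) and 23 to 151 in KO (median 39.5). KO4 and KO2 were the highest samples, and 3 KO samples lay within the WT range. Its log2 change was 1.13 ± 0.429 (SE, limma unadjusted p = 0.0203, adjusted p = 0.157, exact permutation p = 0.0411). miR-3075 passed the filter only through the KO samples. With values under 32 raised to 32 its log2 change was 0.67 and its unadjusted limma p was 0.0763, and with a pseudocount of 50 the change was 0.50.

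The miR-3102 hairpin gave 3 tested miRNAs. miR-3102-5p.2 had 245 to 811 in WT (median 343) and 305 to 1549 in KO (median 837.5). KO3, KO4 and KO5 lay above every WT sample, and KO1, KO2 and KO6 lay within the WT range. Its change on the log2 scale was 0.97 ± 0.437 (SE, limma unadjusted p = 0.0444, adjusted p = 0.235), and the exact permutation p was 0.0714. The unadjusted limma p did not stay under 0.05 without WT1, WT2, WT3, WT6, KO3, KO4 or KO5, when it was up to 0.106, nor with median centring or with a t-test in place of limma. Its partner on the opposite arm, miR-3102-3p.2, had 21 to 32 in WT (median 27) and 18 to 94 in KO (median 44.5), with KO2 to KO5 above every WT sample and KO1 and KO6 not. Its log2 change was 0.73 ± 0.349 (SE, limma unadjusted p = 0.0547, adjusted p = 0.261). miR-3102-3p.2 passed the filter only through the KO samples. Its log2 change was 0.60 with values under 32 raised to 32 and 0.35 with a pseudocount of 50. miR-3102, which lies beside this pair on the hairpin, had 25 to 67 in WT and 25 to 62 in KO, with a log2 change of -0.17 ± 0.294 (SE, limma adjusted p = 0.834), and the groups overlapped throughout. miR-3102*, with a mean intensity of 19.8, was too dim to test.

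**Figure D3:**
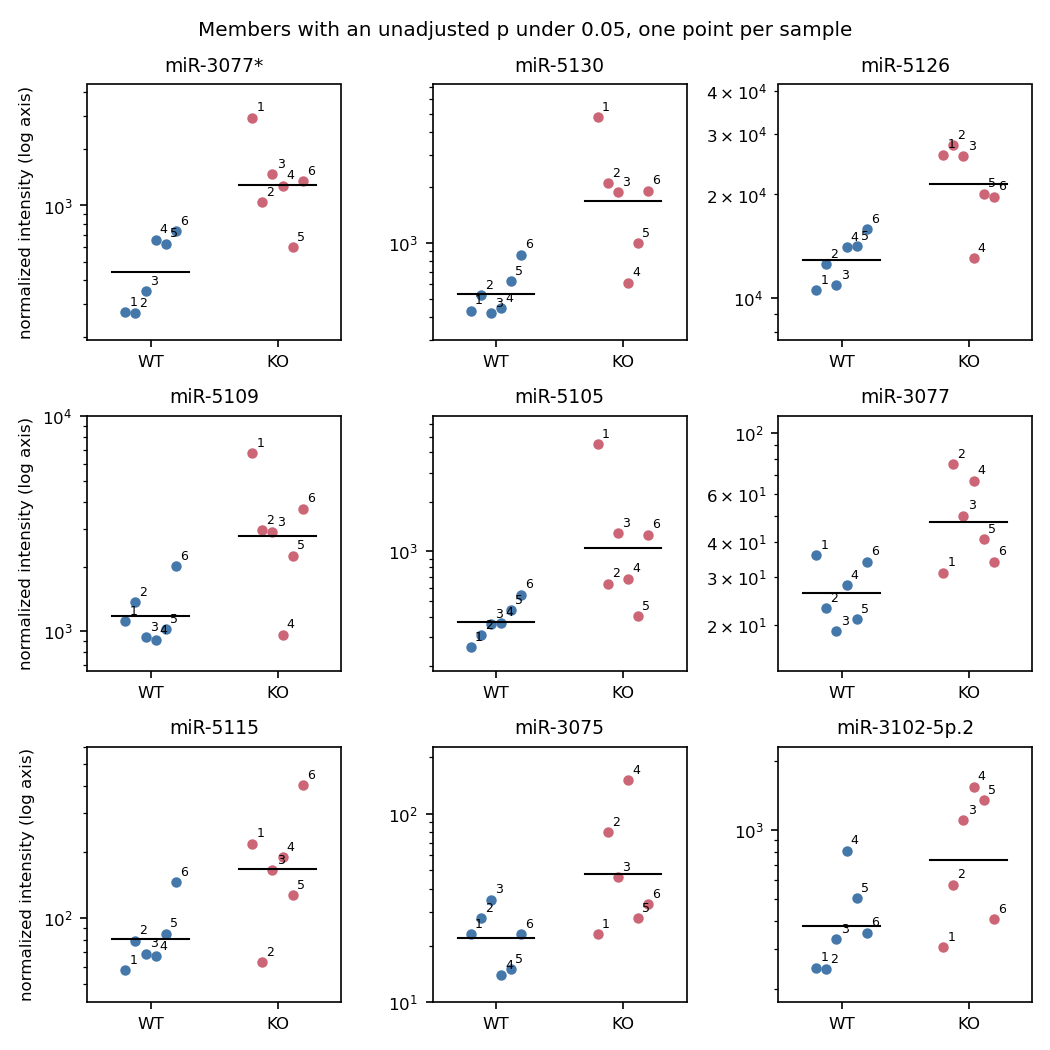
Normalized intensity (vertical log axis) of the 9 late-numbered miRNAs with an unadjusted limma p under 0.05, with 1 point per sample numbered within its genotype (6 WT, 6 KO) and a line at the geometric mean of each group. KO1 is the highest KO sample for 4 of the 9, WT6 the highest WT sample for 6, and in each of the 9 at least 1 KO sample lies at or below the highest WT sample.

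Single samples recurred at the edges of these ranges. Among the 9 miRNAs, KO1 was the highest KO sample for 4, miR-5130, miR-3077*, miR-5105 and miR-5109, and the lowest KO sample for 3, miR-3077, miR-3075 and miR-3102-5p.2. KO4 was the lowest KO sample for 3 and KO5 for 2, and WT6 was the highest WT sample for 6. Over the 39 tested, KO1 was lowest of the KO samples for 15 and highest for 11, and WT1 was the lowest of the WT samples for 14. Without KO1, limma calls rose over the whole array, from 72 to 106 of the 370 miRNAs unadjusted and from 5 to 49 adjusted. Of the 39, 13 then had an unadjusted limma p under 0.05, all higher in KO, and 6 passed the adjusted threshold. These 6 were miR-3077*, miR-5105 and miR-5130, and miR-3075, miR-3077 and miR-3102-3p.2, which had passed the filter only through the KO samples. Without KO4, 3 passed it, miR-5109, miR-5126 and miR-5130, a count given here without the one over the whole array.

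Of the 10 late-numbered miRNAs with the highest mean intensity, 5 were among the 9 above and the other 5 did not pass the unadjusted threshold. miR-5107 had 728 to 11114 in WT (median 2209.5) and 798 to 18550 in KO (median 8699.5). The samples split in both groups: WT1, WT2, WT3 and WT6 were at 3009 or lower while WT4 and WT5 were at 10848 or higher, and KO1 was far below the other KO samples, which began at 5635. On the log2 scale the change was 1.33 ± 0.850 (SE, limma adjusted p = 0.419), and without KO1 it was 1.95 with an unadjusted limma p of 0.0171. With array weights, which gave KO1 the lowest weight, the change was 2.61 (limma adjusted p = 0.00769). miR-5112 had 1425 to 16838 in WT (median 9074) and 2769 to 9792 in KO (median 6243), with WT1 the lowest and WT4 the highest of all samples. Its log2 change was -0.36 ± 0.544 (SE, limma adjusted p = 0.774), and the KO range lay inside the WT range. The change was -0.83 without WT1 and -0.11 without WT4.

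miR-3097-5p, from within Rgs12, had 1628 to 2340 in WT (median 2152.5) and 943 to 1807 in KO (median 1701.5). WT5 lay within the KO range, and all other WT samples lay above every KO sample. The log2 change was -0.42 ± 0.202 (SE, limma unadjusted p = 0.0551, adjusted p = 0.261), while the exact permutation test of the single miRNA gave p = 0.0108. It was below the unadjusted threshold in 8 of the 24 alternatives and not in the other 16. miR-3107, whose gene overlaps Mir486, had 732 to 1442 in WT (median 993) and 570 to 1254 in KO (median 781.5), with WT1 the highest WT and KO1 the highest KO sample. Its log2 change was -0.32 ± 0.259 (SE, limma adjusted p = 0.554). Its asterisked arm, miR-3107*, had 45 to 84 in WT and 28 to 130 in KO and a log2 change of -0.27 ± 0.321 (SE, limma adjusted p = 0.710), with KO1 the highest sample. Without KO1 that change was -0.53, and without KO6 it was -0.083. miR-3082-5p had 581 to 1335 in WT and 390 to 1261 in KO, with a log2 change of -0.32 ± 0.317 (SE, limma adjusted p = 0.657) and overlapping groups, and the change was -0.13 without KO1.

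The late-numbered miRNAs differed widely in their spread within a genotype. The ratio of the highest to the lowest sample had a median over the 39 of 2.32 in WT and 4.5 in KO, against 2.12 and 3.19 over all 370. It was larger in KO for 31 of the 39, or 79.5%, which is the share over all 370 (79.5%). For 5 of the 39 the ratio was over 5 in both groups: miR-5107, miR-3970, miR-3963, miR-5117 and miR-3962. These miRNAs, and miR-3473d below, were picked out after their values were seen. miR-3968 and miR-3097-5p were the steady ones, the 2 with a ratio under 2 in both groups. The median standard deviation within groups was 0.650 on the log2 scale for the 39 and 0.548 for all 370.

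miR-3970 had 33 to 645 in WT (median 158.5) and 41 to 1065 in KO (median 312). miR-3962, the let-7 look-alike printed above, had 13 to 246 in WT (median 57.5) and 24 to 429 in KO (median 123). In WT the order of the samples from lowest to highest was WT1, WT2, WT6, WT3, WT4 and WT5 for both, and in KO it was KO1, KO2, KO3, KO5, KO4 and KO6 for both. No other pair of the 39 had the same order in both groups. let-7g, which shares the run of 17 bases with miR-3962, had 4322 to 5271 in WT and 2680 to 4650 in KO, so its highest sample was less than 2 times its lowest. The log2 changes were 0.54 ± 0.838 (SE, limma adjusted p = 0.774) for miR-3970 and 0.93 ± 0.807 (SE, limma adjusted p = 0.585) for miR-3962.

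miR-3473d showed a wide range in KO alone, the widest KO range of the 39. A ratio of highest to lowest sample over 5 was found in KO for 15 of the 39 and in WT for 7. miR-3473d had 65 to 167 in WT (median 141.5), and in KO it ran from 25 to 787 (median 406). KO1, at 25, and KO6, at 54, lay below every WT sample, and the other 4 KO samples, at 368 to 787, lay above every WT sample. The highest KO sample was thus 31.5 times the lowest, against 2.57 times in WT. The log2 change was 0.74 ± 0.743 (SE, limma adjusted p = 0.662). miR-3963 had 50 to 389 in WT (median 223) and 47 to 433 in KO (median 85), and its log2 change of -0.70 ± 0.584 (SE, limma adjusted p = 0.567) was the lowest among the 39. Its highest sample was KO6 and its lowest KO2. miR-5117 had 33 to 248 in WT and 12 to 357 in KO, with a log2 change of 0.54 ± 0.755 (SE, limma adjusted p = 0.761) and with KO1 the lowest of all samples.

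**Figure D4:**
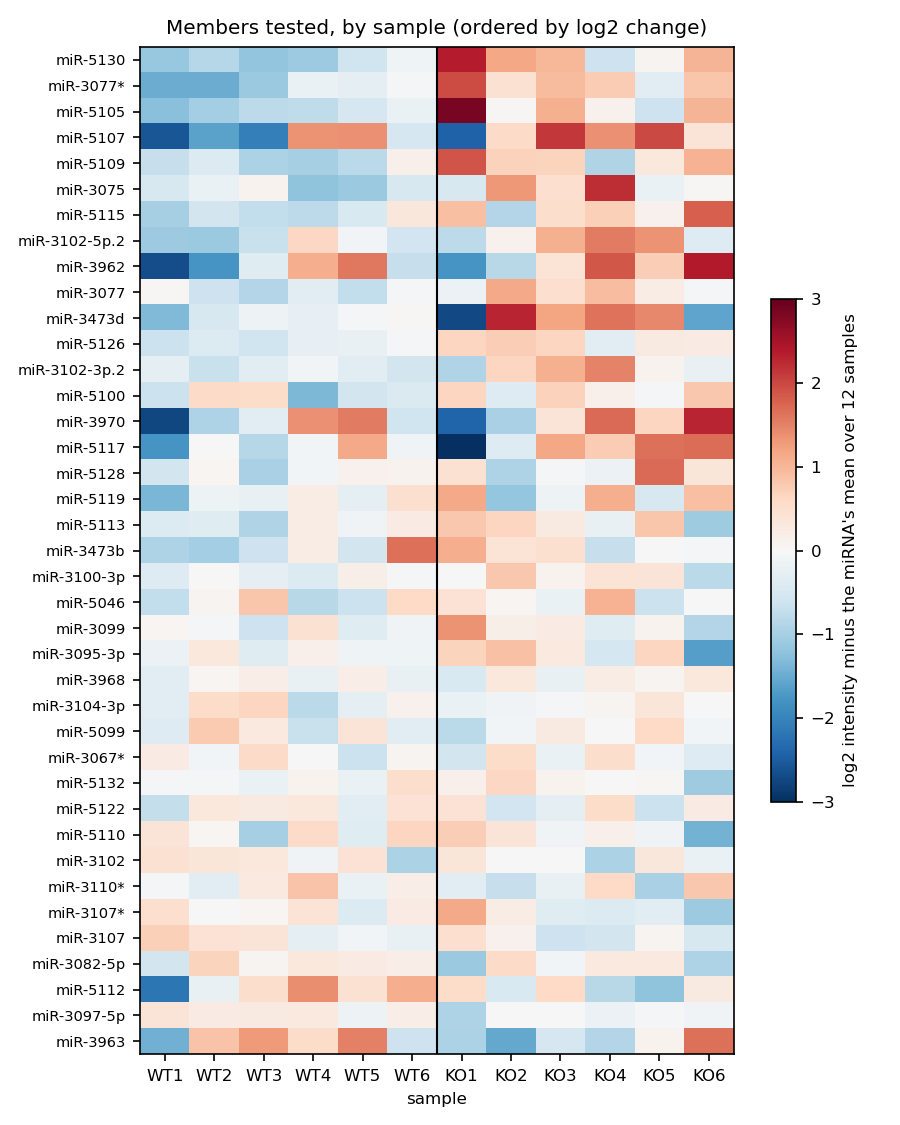
Log2 intensity of each tested late-numbered miRNA (39 rows, ordered by log2 change) in each of the 12 samples (columns), minus the mean of that miRNA over the samples. The KO1 column is red for miR-5130, miR-3077*, miR-5105 and miR-5109 and blue for miR-5107, miR-3962, miR-3970, miR-5117 and miR-3473d, and WT1 is blue for most of these.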

How the data were processed

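Total RNA was hybridized to an array of mouse miRBase version 17, and the samples were grouped by the genotype in their labels. The intensities were normalized by the authors and deposited as linear whole numbers, without depth, so the 6 samples per group set the precision. The normalization, background correction and averaging of repeated spots are not given in the sources used here. Values under 1 were raised to 1 and log2 transformed, miRNAs with a mean intensity under 32 were left out (370 kept), and genotypes were compared two-sided in R 4.3.3 with limma 3.58.1, its lmFit and eBayes, with Benjamini-Hochberg adjustment over all 370. The fit was checked on simulated data. Named miRNAs were those past the unadjusted threshold of 0.05, the 10 brightest, 4 that the paper lists, arms of one hairpin and those at the filter, with exceptions stated. The late-numbered miRNAs and lists were chosen with earlier results of these data known. Sequences and neighbouring genes come from RefSeq (GRCm38.p6). Alternatives covered floor, pseudocount, filter, normalization, replicate block, test and each sample left out.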

Additional observations from a re-analysis of the deposited data

Results flagged for a closer look

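Among the named late-numbered miRNAs, 36 groups of 6 samples were examined for a sample far from the others, and 2 were singled out, where chance alone gives about 1 in 20, or 1.8 groups. Both were of miR-3097-5p. In WT, the gap between WT5, at an intensity of 1628, and the other WT samples, at 2068 to 2340, was 0.659 of the range of log2 values. Without WT5 the log2 change was -0.49 (unadjusted p = 0.0379 and adjusted p = 0.230 from limma). In KO, the gap between KO1, at 943, and the other KO samples, at 1581 to 1807, was 0.795 of the range, and without KO1 the log2 change was -0.28 (unadjusted p = 0.100 and adjusted p = 0.246 from limma).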

How the results depend on the processing

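Of 39 late-numbered miRNAs tested, 9 passed the unadjusted and 0 the adjusted limma threshold (9 unadjusted), with a median log2 change of 0.41. Over all 370 miRNAs tested, 72 passed unadjusted and 5 adjusted. With all 174 late-numbered miRNAs kept, 18 of them passed unadjusted (15 higher, 3 lower) and their median was 0.016. In that fit, 123 of all 1096 miRNAs passed unadjusted. With array weights, KO1 had a weight of 0.156 and the others 0.500 to 3.31. Of the 39, 16 then passed unadjusted (14 higher, 2 lower), 13 adjusted, and the median was 0.33. The 13 included miR-3075, miR-3077 and miR-3102-3p.2, which had entered the test only through their KO samples. Over all 370 miRNAs, array weights gave 156 unadjusted and 115 adjusted. The adjusted count was 2 with a pseudocount of 50, 2 with quantile normalization, 2 with cyclic loess and 3 with a variance trend and robust estimation. Over all 370 miRNAs, these settings gave 14, 8, 11 and 14 adjusted, in the same order. With a mean intensity of at least 100, 24 late-numbered miRNAs were tested and 2 passed adjusted, against 12 over the whole array. With at least 500, 12 were tested and 5 passed adjusted, against 21 over the whole array. The median was 0.21 with the pseudocount, 0.49 and 0.85 with the higher filters and 0.32 with cyclic loess. With each sample left out, the unadjusted count was 8 to 13, the adjusted count 0 to 6 (6 without KO1, 3 without KO4, 1 without WT4 and 1 without KO5) and the median 0.24 to 0.48. Over all 370 miRNAs, 106 passed unadjusted and 49 adjusted without KO1, and 72 and 11 without WT4. No count over the whole array is given here without KO4 or KO5, so those 2 counts cannot be read as particular to the late-numbered miRNAs. A t-test, which the methods name for the mRNA arrays while naming no test for the miRNAs, gave 9 unadjusted (8 higher, 1 lower) and 0 adjusted. Over all 370 miRNAs the t-test gave 72 unadjusted and 4 adjusted. Under the 24 alternatives, miR-3077* passed the adjusted threshold in 10 and miR-5130 in 9. The log2 change of miR-5122 ran from -0.25 to 0.026 with a sample left out (above 0 without KO2, at 0.012, and without KO5), and that of miR-3102 from -0.37 to 0.0086, above 0 without KO4. The cause of these shifts was not tested.

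With the sample number as a replicate block, 11 passed unadjusted, all higher, 0 adjusted, and the median was 0.41. Over all 370 miRNAs, 89 passed unadjusted and 4 adjusted with the block. The further 2 were miR-5107 (limma unadjusted p = 0.0292) and miR-3102-3p.2 (limma unadjusted p = 0.0441). Like miR-3077 and miR-3075 among the 11, miR-3102-3p.2 had entered the test only through its KO samples, so its p is a description. Deviations of same-numbered samples correlated from -0.453 to 0.594, and 2 of the 6 WT samples correlated best with the KO sample of their own number, so the numbers were not taken as pairs, although they may mark them. A correction for GC content, with or without the block, was not run because 79.7% of the 370 miRNAs had a sequence, short of the 80% required, which makes the check void.

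Array intensities give no counts, the 135 dim miRNAs have no test, and 6 samples per genotype limit every comparison. Dye and genotype cannot be told apart.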
